A study of Rattus norvegicus with 10 samples.

Results

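Transcripts of ultraconserved regions (T-UCRs) were read in the spinal cord of morphine-tolerant and control rats by 962 of the 24684 non-control probes of an lncRNA and mRNA microarray. The members were every probe named uc. with a number and a strand sign, which gave 481 numbered regions with a + and a - probe each. The numbers ran from 1 to 483 and lacked 11 and 32. The tissue came from the lumbar enlargement of male Sprague Dawley rats of 240 to 260 g, whose age the labels do not give. The 5 rats of the morphine tolerance group (MT) received 10 µg of morphine in 10 µl by intrathecal injection 2 times a day for 7 days, and the 5 rats of the normal saline group (NS) received 10 µl of saline on the same schedule. By the paper's methods, the rats were anesthetized for tissue collection on the next day, 1 hour after a further morning injection of morphine or saline. The MT arrays thus also follow a recent dose. Both groups were injected, so neither is an untouched control, and each array held the RNA of 1 rat.

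Ultraconserved regions are long stretches of DNA with the same sequence in human, mouse and rat. Some overlap exons of genes for splicing and RNA-binding proteins, and others lie in introns or between genes, often near transcription factor genes of development. RNA can be made from either strand of such a region. Evf2, made at the Dlx5 and Dlx6 genes, is a known transcript of this kind, and uc.48+ has been studied in rat sensory ganglia in models of neuropathic pain. The files used here pair the T-UCR names with no sequence or genome position, so neither is printed.

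Of the 962 T-UCR probes, 468 (48.6%) were kept for the comparison, which required a signal well above background, as called by the scanner software, on at least 5 of the 10 arrays. These were 229 + and 239 - probes. The share kept was 76.8% of the 8357 other lncRNA probes and 87.4% of the 15321 mRNA probes. Each T-UCR was read by 1 spot per array, against 3 spots for each other lncRNA and 1 to 10 for an mRNA, so that a T-UCR value has no spots to average. Of the T-UCR probes not kept, 290 (30.1% of the 962) were above background on no array and 204 on 1 to 4 arrays, and of those kept 171 (17.8%) were on all 10. No T-UCR spot was saturated. Among the members kept, the median log2 intensity was 4.64, against 6.52 for the other lncRNAs kept and 9.00 for the mRNAs kept, and the median residual SD was 0.40 against 0.236 and 0.193. These class medians describe probe signals and set no T-UCR's amount against that of a gene.

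Detection differed between arrays that share a scan time, called scans here. Scan 1 held MT rats 1, 3, 4 and 5, scan 2 held MT rat 2 and NS rats 6, 7 and 10, and scan 3 held NS rats 8 and 9. T-UCR probes were above background at 52.3, 57.2, 55.9, 50.5 and 51.5% in MT rats 1 to 5, and at 46.4, 47.2, 23.0, 18.3 and 50.8% in NS rats 6 to 10. The scan 3 arrays were the 2 lowest, with 57.2 and 51.1% of other lncRNA probes and 76.6 and 72.8% of mRNA probes above background. The lowest log2 intensity called above background was 4.25 and 4.28 on scan 3, against 2.48 to 2.77 on the other arrays. Of the 364 members above background on all 8 arrays of scans 1 and 2, 150 (41.2%) were at background on both arrays of scan 3, against 19.2% of other lncRNA and 7.95% of mRNA probes. Only scan 2 held both groups, so values without scan 3 and within scan 2 are given beside the main ones.

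**Figure D1:**
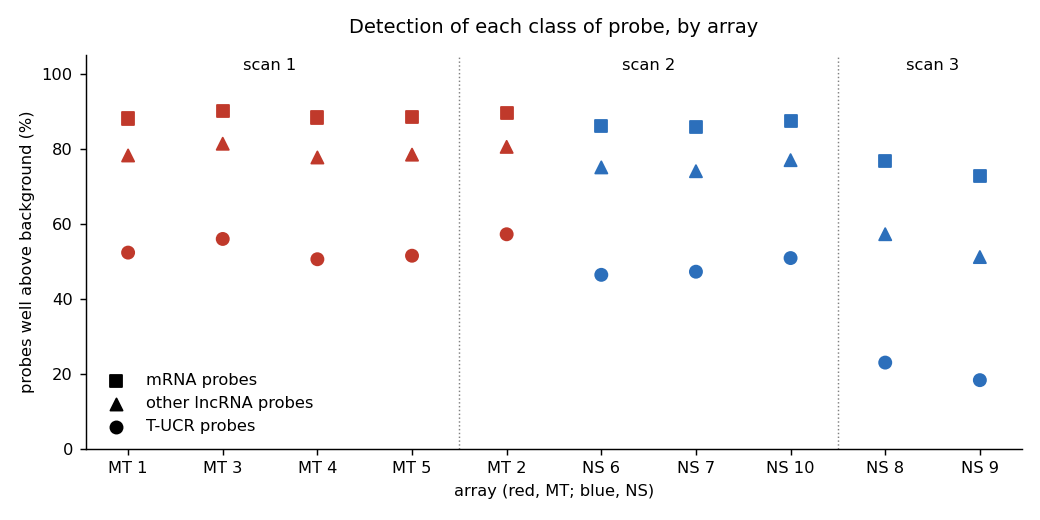
Percent of probes well above background (vertical axis) on each of the 10 arrays, for T-UCRs, other lncRNAs and mRNAs, with MT and NS rats along the horizontal axis. The T-UCR share lies between 46.4 and 57.2% on the arrays of scans 1 and 2 and at 23.0 and 18.3% in NS rats 8 and 9.

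In 9 members (0.936% of the 962, against 0.389% of all probes) the signal was above background in all 5 MT rats and in no NS rat: uc.29+, uc.158-, uc.167-, uc.213+, uc.352-, uc.395-, uc.468+, uc.469+ and uc.482-. No member, and no probe of any class, was above background in all 5 NS rats and in no MT rat. Being above background in all NS rats required passing the higher floor of scan 3, at 4.25 and 4.28, which no MT array had. The lowest signal called on the other arrays was 2.48 to 2.77, and the part of this floor in the counts was not tested. Within scan 2, 59 members (6.13%, against 2.39% of all probes) were above background in MT rat 2 and in none of NS rats 6, 7 and 10, and 0 were so in the reverse, against 0.0851% of all probes. The scan 2 counts rest on 1 MT rat. Members above background in MT alone passed the filter through the group where they are high and had to differ, so no test is read from them.

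**Figure D2:**
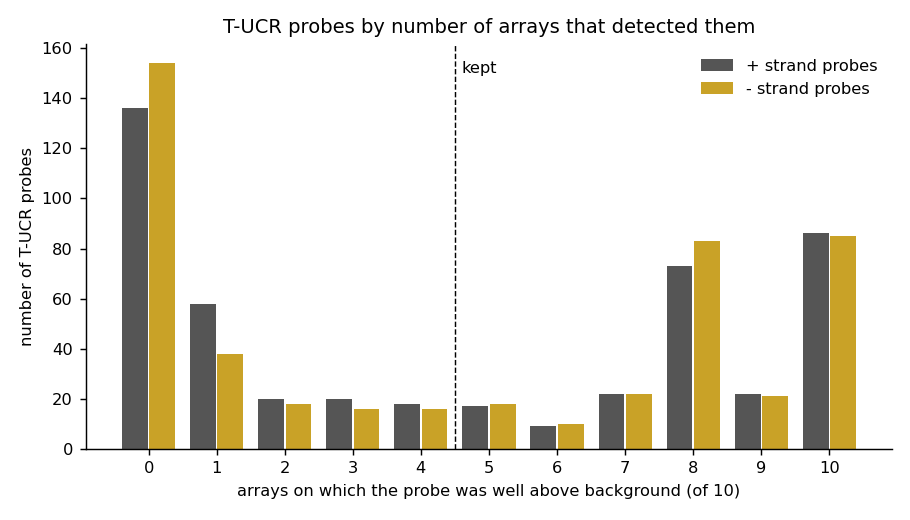
Number of T-UCR probes (vertical axis) by the number of arrays on which they were well above background (horizontal axis, 0 to 10). The tallest bars are at 0 arrays, with 290 probes over both strands, and at 10 arrays, with 171, and the dashed line marks the 5 arrays needed to be kept.

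Between the groups, 27 of the 468 members kept (5.77%) passed the criteria used here, a linear fold above 1.5 with an unadjusted limma p below 0.05, where 2.74% of all 20286 RNAs tested did. The 27 were 12 higher in MT, against a background of 1.74%, and 15 lower, against 0.996%. Of the 12 higher, 5 were at background in all NS rats and so were kept through MT alone, and 3 of these 5 have a bound under 1.5-fold. Among the 459 members above background in at least 1 rat of each group, 7 (1.53%) were higher, against 1.59% of all such RNAs, and 15 (3.27%) were lower, against 1.00%. With the threshold on the log2 scale, as the methods print it, 0 members passed. The 27 comprised 15 + and 12 - probes. No member had a limma p below 0.05 after Benjamini-Hochberg adjustment over all RNAs, where 0.197% of all RNAs did, and the lowest adjusted p was 0.0540, for uc.370+. An unadjusted p below 0.05 was found for 67 members with limma, where the background was 16.4%, and for 55 with the methods' test, which also gave 0 after adjustment. For the 55, no share over all RNAs was counted. In 15 members the groups did not overlap, 8 with MT higher and 7 with MT lower, and over all RNAs these shares were 5.65, 2.36 and 3.29%. Of the 8, uc.352-, uc.468+ and uc.482- were kept through MT alone, so their separation is not read. The median log2 difference of the members, MT minus NS, was 0.06, against -0.00 over all RNAs, with 267 members above 0 and 201 below, and it was -0.09 without scan 3.

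The split by direction moved with the scaling. It was 12 higher and 15 lower with quantile normalization (44.4% higher), 18 and 6 (75%) in the authors' own normalized table, and 31 and 1 (96.9%) when each array was set to its 75th percentile, where the median moved to 0.07 over all RNAs and to 0.33 over the members. With no filter on dim probes it was 21 and 56 (27.3%). By detection, 4 of the 171 members above background on all 10 arrays passed the criteria, 9 of 199 on 8 or 9 arrays and 14 of 98 on 5 to 7 arrays. The share of all RNAs past the criteria was not counted at these levels of detection or under the alternative settings. Among the 27 members, 10 of the 12 higher and 9 of the 15 lower were at background on both scan 3 arrays. Without those arrays 46 members passed, among them 10 of the 12 higher and 5 of the 15 lower members that passed with them. With the scan as a random block 11 members passed, and with normexp background correction 2. A fixed block for the scan gives the differences within scan 2, as no other scan holds both groups. It therefore rests on MT rat 2 alone. The log2 difference ran from 0.42 to 1.24 without scan 3 and from 0.01 to 1.30 within scan 2 for the 12 higher members, and from -1.10 to -0.24 and from -0.82 to 0.22 for the 15 lower. In bulk tissue a lower signal from fewer cells of a type and from less RNA per cell cannot be told apart.

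**Figure D3:**
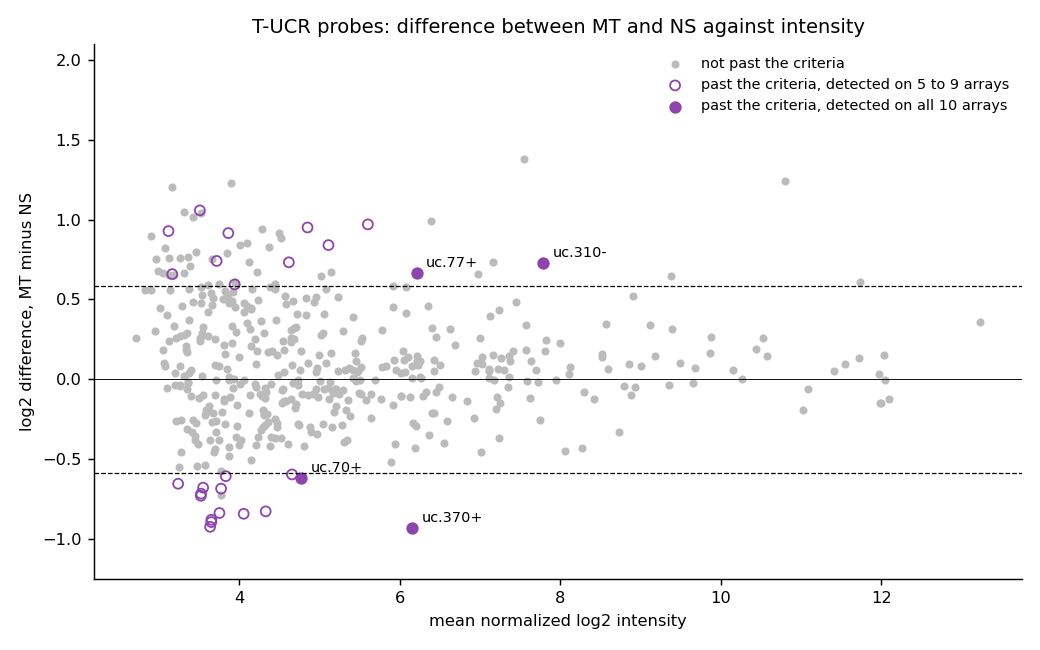
Log2 difference, MT minus NS (vertical axis), against the mean log2 intensity (horizontal axis) of the 468 T-UCRs kept, with the members past the criteria in purple, filled where detected on all 10 arrays. The dashed lines mark a fold of 1.5, and the point furthest from 0 is uc.243+ at 1.38, which did not pass in the main fit.

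Of the 15 members lower in MT, uc.370+ had the lowest adjusted p and was detected on every array. For uc.370+, MT rats 1 to 5 gave log2 intensities of 5.81, 5.76, 5.70, 5.67 and 5.52 and NS rats 6 to 10 gave 6.61, 6.12, 6.51, 6.86 and 7.01. All 5 MT rats were lower than all 5 NS rats (log2 difference -0.93, SE 0.15, limma adjusted p = 0.0540; exact permutation p = 0.00794, two-sided, the smallest that reassigning the rats can give). The difference was -0.89 without scan 3 and -0.82 within scan 2. It passed the criteria in 20 of 23 alternative analyses, and the 3 others were normexp background correction, scan 2 alone and a log2 difference above 1.5 as the threshold. These alternatives reuse the same arrays, so they are not independent checks, and passing used the unadjusted p. Several, such as no filter on dim probes and outlier spots kept, leave the log2 difference of uc.370+ as it was. The fixed block for the scan, counted among the 20, rests on MT rat 2 alone. With the scan as a random block the difference was -0.88 (limma adjusted p = 0.372). uc.370- was not kept, with values of 1.89 to 3.04 in MT and 2.15 to 3.41 in NS rats.

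The other members above background on all 10 arrays that passed were uc.70+, uc.77+ and uc.310-. MT rats 1 to 5 had uc.70+ at log2 intensities of 4.53, 4.04, 4.91, 4.40 and 4.44, and NS rats 6 to 10 at 4.62, 4.95, 5.61, 5.55 and 4.67. The difference was -0.62 (SE 0.23, limma adjusted p = 0.245) and -0.28 without scan 3. It was -0.71 within scan 2, which rests on MT rat 2 alone, and -0.71 with the scan as a random block. uc.70+ lies outside the 10 largest of its direction and was named after its values were seen. The log2 intensity of uc.310- was 8.22, 7.74, 8.16, 8.41 and 8.22 in MT rats 1 to 5, against 7.61, 7.84, 6.91, 7.02 and 7.74 in NS rats 6 to 10. It was 0.73 higher in MT (SE 0.20, limma adjusted p = 0.155), 0.42 without scan 3 and 0.01 within scan 2, where MT rat 2 lay inside the range of the NS rats. The study chose uc.310- and uc.48+ for follow-up by RT-qPCR from these arrays, so their difference here is no independent evidence. Neither is among the lncRNAs that the paper lists as significantly different by RT-qPCR. For those not listed, it reports the same trend without a significant difference between the groups. The opposite strand, uc.310+, was not kept, at 2.90 to 3.62 in MT and 2.57 to 2.83 in NS rats.

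For uc.48+, MT rats 1 to 5 gave log2 intensities of 5.51, 4.77, 5.45, 5.42 and 5.47 and NS rats 6 to 10 gave 4.75, 4.63, 4.49, 4.53 and 3.47. The groups of uc.48+ did not overlap (log2 difference 0.95, SE 0.25, limma adjusted p = 0.133), with NS rat 10 at 3.47 and MT rat 2 at 4.77 the lowest of their groups. The difference was 1.04 without scan 3 and 0.49 within scan 2, where MT rat 2 at 4.77 stood next to NS rat 6 at 4.75. uc.48- was kept, at 6.95 to 7.12 in MT and 6.78 to 7.00 in NS rats.

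Several members higher in MT were at background in all NS rats, so their fold is a lower bound, the MT mean set against an NS mean in which each array takes the higher of its own value and its lowest signal above background. They passed the filter through MT alone, so their values are a description with no test. MT rats 1 to 5 had uc.468+ at log2 intensities of 4.51, 4.08, 4.65, 4.07 and 4.29, and NS rats 6 to 10 at 3.33, 3.37, 3.23, 3.99 and 3.10. uc.468+ was at least 1.57-fold higher in MT. uc.167- was at least 1.48-fold higher at 3.45 to 4.91 in MT and 2.35 to 3.63 in NS rats. uc.395- was at least 1.51-fold higher at 3.31 to 4.61 in MT and 2.61 to 4.26 in NS rats, with overlapping groups. The lower bounds of uc.482- and uc.352- were 1.13 and 1.04. uc.352- and uc.301- fell outside the 10 largest. uc.352- was named as part of a strand pair at the smallest exact p, and uc.301- after its values were seen. The log2 intensity of uc.462+ was 5.80, 4.85, 5.77, 5.79 and 5.44 in MT rats 1 to 5, against 4.55, 4.67, 4.79, 4.66 and 4.78 in NS rats 6 to 10. MT rat 2 at 4.85 was close to the NS rats and the other MT rats lay at 5.44 or above (limma adjusted p = 0.0926). For uc.482-, MT rats 1 to 5 gave log2 intensities of 3.55, 3.79, 3.54, 3.38 and 3.65 and NS rats 6 to 10 gave 1.86, 3.06, 2.64, 3.15 and 2.56. The groups of uc.482- did not overlap, and NS rat 6 was the lowest. MT rats 1 to 5 had uc.28- at log2 intensities of 6.19, 5.69, 5.76, 6.57 and 6.22, and NS rats 6 to 10 at 5.86, 5.46, 4.17, 4.46 and 5.63. NS rats 8 and 9 were lowest, and the difference was 0.44 without scan 3. The remaining higher members were above background in at least 1 NS rat. Besides uc.48+ and uc.310-, they were uc.28- (0.97, 0.04 within scan 2), uc.462+ (0.84, 0.19), uc.156- (0.73, 0.01), uc.77+ (0.67, 0.09) and uc.301- (0.59, 0.21) as log2 differences. The values within scan 2 set MT rat 2 alone against the NS rats of that scan. A fit with the scan as a fixed block gives the same values. MT rat 2, the MT rat of scan 2, was the lowest MT rat in 9 of the 12.

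After uc.370+, the lower members with the largest log2 differences were uc.35+ (-0.92), uc.104- (-0.89), uc.363+ (-0.88), uc.264- (-0.84), uc.322+ (-0.84), uc.325+ (-0.83), uc.185+ (-0.73), uc.245- (-0.72) and uc.63+ (-0.69), with adjusted p from limma between 0.156 and 0.282. Of these, uc.363+ and uc.63+ were above background on 5 of the 10 arrays, uc.185+ on 6, uc.245- on 7 and uc.325+ on 9. Values at background thus enter their differences. The log2 intensity of uc.35+ was 3.43, 3.62, 2.97, 2.80 and 3.05 in MT rats 1 to 5, against 3.44, 3.55, 3.83, 5.62 and 4.05 in NS rats 6 to 10. NS rat 9 stood far above the rest, and the difference was -0.51 without scan 3. For uc.245-, MT rats 1 to 5 gave log2 intensities of 3.30, 3.21, 2.87, 3.41 and 3.04 and NS rats 6 to 10 gave 3.51, 3.45, 3.67, 4.83 and 3.96. The groups of uc.245- did not overlap, and NS rat 9 was the highest. MT rats 1 to 5 had uc.185+ at log2 intensities of 3.11, 2.96, 3.57, 3.05 and 3.09, and NS rats 6 to 10 at 3.58, 3.27, 4.09, 4.69 and 3.79. MT rat 3 lay within the NS range. In 6 of the 15 lower members NS rats 8 and 9 were both above every other NS rat, and in 8 MT rat 2 was the highest MT rat. Within scan 2 the difference was above 0 for uc.363+ (0.08), uc.322+ (0.16), uc.325+ (0.22) and uc.63+ (0.19), against -0.75, -0.46, -0.87 and -0.46 without scan 3. As scan 2 holds 1 MT rat, the rat and the scan cannot be told apart there. Among the 27, uc.245- and uc.246+, and uc.27- and uc.28-, are neighbours in number, of which uc.246+ and uc.27- were named after their values were seen. Both of the first pair were lower, and of the second uc.27- was lower (-0.65) and uc.28- higher (0.97).

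**Figure D4:**
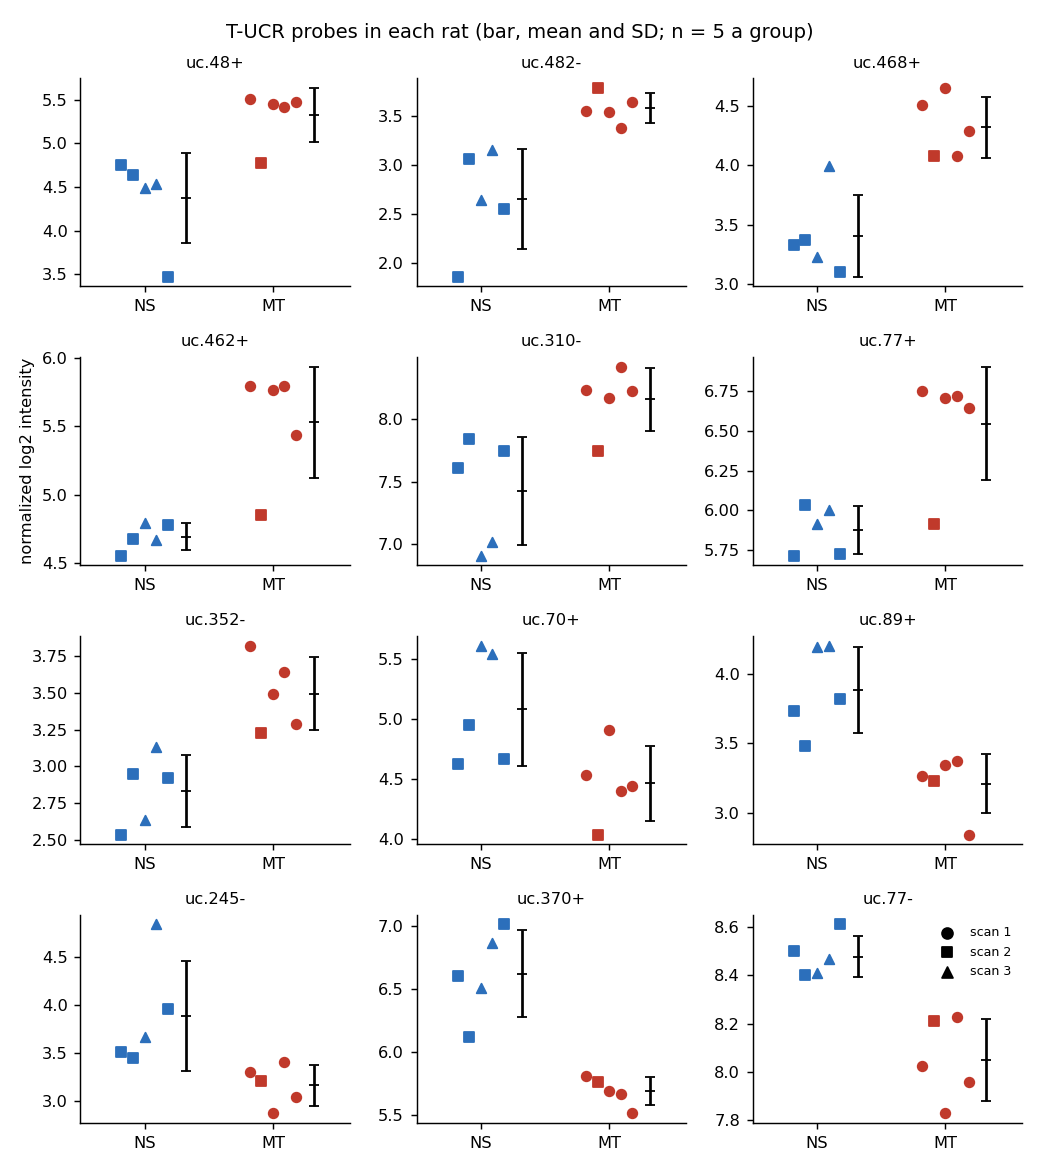
Log2 intensity (vertical axis) of 12 named T-UCRs in each rat, with NS rats in blue and MT rats in red, the scan shown by marker shape, and the bar at the mean with 1 SD (n = 5 a group). The MT rats lie below the NS rats for uc.370+, uc.89+, uc.245- and uc.77- and above them for uc.48+, uc.462+, uc.468+, uc.482- and uc.352-. In all NS rats uc.468+, uc.482- and uc.352- were at background.

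The probes of the 2 strands of a region were compared as pairs. Both were kept in 133 of 481 pairs (27.7%), only the + probe in 96, only the - probe in 106 and neither in 146. Both were above background on all 10 arrays in 29 pairs, and in 32 pairs 1 strand was on all 10 and the other on none (18 with + and 14 with - detected). In no pair did both strands pass the criteria. Of the 27 members that did, 16 had an opposite strand that was kept and 11 had one that was not. For the 133 pairs, the within-array difference of the + and - log2 intensities was compared between groups by an exact permutation test, which asks whether 1 strand moved relative to the other and sets no probe's level against another's. An unadjusted exact p below 0.05 was found in 21 pairs (15.8%), and 6 pairs (4.51%) reached the smallest value, 0.00794. As no other RNAs form pairs, there is no background for these counts.

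Among these 6 pairs uc.77 had the largest difference, although pairs with a larger exact p had larger ones. The log2 intensity of uc.77+ was 6.75, 5.91, 6.71, 6.72 and 6.64 in MT rats 1 to 5, against 5.71, 6.04, 5.91, 6.00 and 5.73 in NS rats 6 to 10. For uc.77-, MT rats 1 to 5 gave log2 intensities of 8.03, 8.21, 7.83, 8.23 and 7.96 and NS rats 6 to 10 gave 8.50, 8.40, 8.41, 8.47 and 8.61. The + probe was higher in MT (0.67) and the - probe was at -0.43, under a fold of 1.5 but with no overlap of the groups. The change of + relative to - was 1.1 on the log2 scale (exact permutation p = 0.00794). It was 1.18 without scan 3 and 0.38 within scan 2. In uc.185 the + probe was lower (-0.73) and the - probe was at 0.34, a relative change of -1.07. This change was -0.65 without scan 3 and -0.65 within scan 2. uc.185+ was above background on 6 of the 10 arrays, so values at background enter this change. MT rats 1 to 5 had uc.185- at log2 intensities of 9.34, 9.08, 9.65, 9.17 and 9.18, and NS rats 6 to 10 at 9.04, 8.98, 8.81, 8.83 and 9.06. The MT and NS rats of uc.185- did not overlap. The relative change was 0.94 for uc.462 (0.11 within scan 2), -0.51 for uc.472 (-0.28) and 0.37 for uc.471 (0.20). Of these, uc.472 and uc.471 were named after their values were seen. uc.462+ was above background on 8 arrays and uc.472+ on 9. The last of the 6 pairs, uc.352, has a - probe at background in all NS rats, so its relative change has no measured size and its exact p is not read.

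**Figure D5:**
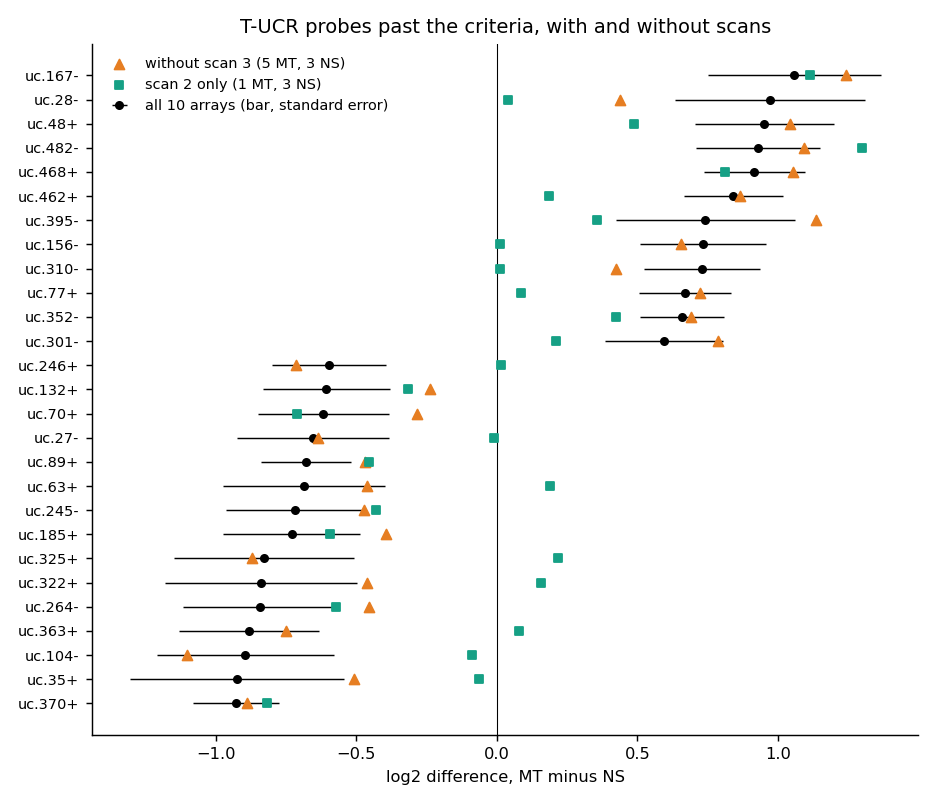
Log2 difference, MT minus NS (horizontal axis), of the 27 T-UCRs past the criteria, from all 10 arrays with its standard error, without scan 3 (5 MT and 3 NS rats) and within scan 2 (1 MT and 3 NS rats). uc.370+ lies at -0.93, -0.89 and -0.82, while uc.363+, uc.322+, uc.325+ and uc.63+ lie above 0 within scan 2.

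Lists of genes gave context for the genes that ultraconserved regions are known to lie in or near. Of 40 genes for splicing and RNA-binding proteins, 34 were on the array and kept, and 0 passed the criteria in either direction (median log2 difference -0.00, 16 above 0). Of 50 developmental transcription factor genes, 26 were kept, with a median of 0.11 and 15 above 0. Zeb2, a zinc finger transcription factor, alone passed, at 0.60 (limma adjusted p = 0.162). The array tissue was checked against marker genes: the 6 oligodendrocyte markers had log2 intensities of 14.1 to 17.1 and the 5 astrocyte markers kept of 11.7 to 16.3. The neutrophil markers kept (S100a8, Camp and Ngp, 3 of 6) averaged 5.37 to 5.90 in MT and 4.40 to 4.98 in NS, and the microglia list (6 of 6) 12.55 to 13.04 and 12.99 to 13.45. Of these lists S100a8 (1.44) and the microglial gene Tmem119 (-1.24) passed the criteria, with limma adjusted p of 0.121 and 0.0555. No probe was matched to the neutrophil genes Mpo, Elane and S100a9. The part of these shifts in the T-UCR values was not tested.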

How the data were processed

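RNA of 10 rats was hybridised to 1-colour lncRNA and mRNA arrays, 1 rat an array, after rRNA removal and random-primed labelling. The authors deposited, for each array, the intensity of every spot as extracted by Agilent Feature Extraction 11.0.1.1, with its background flags, and a table of quantile-normalized log2 values. The genome build behind the probe names is not given in the sources used here. The processed intensity of the 42136 non-control spots was used, outlier spots were set aside, log2 was taken, arrays were quantile normalized, and the values of each probe's spots were averaged. Probes whose spots were over 50% well above background, on 5 or more of the 10 arrays, were tested, as 20286 RNAs. MT and NS were compared with limma 3.58.1 in R 4.3.3 (lmFit and eBayes), with Benjamini-Hochberg adjustment over all RNAs. A member passed the criteria with a linear fold above 1.5 and an unadjusted p below 0.05. The paper's methods print the fold threshold on the log2 scale and do not name limma; a linear fold was used here, with the log2 reading as an alternative. The pair comparison used an exact two-sided permutation test over all assignments of the rats. Members named with values were the 10 with the largest fold in each direction among those past the criteria, uc.48+ and uc.310-, members past an adjusted p of 0.05, the opposite strands of these, and the 4 strand pairs with the largest difference at the smallest exact p. Members and gene lists were chosen with earlier results of these data known.

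Arrays that share a scan time were called a scan. The alternatives were 75th percentile scaling, the deposited table, normexp (offset 50), other filters, outlier spots kept, scan as a block, arrays left out, and the methods' test, an unmoderated one on the same values. Normexp was run on the median spot signal, as the deposited files hold no mean signal. The fits were tested on simulated data. Gene names of 14274 of the 15321 mRNA probes came from RefSeq GRCr8. The number of arrays, 5 a group, limits the precision.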

Additional observations from a re-analysis of the deposited data

Results flagged for a closer look

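In 40 groups of 5 values of named members, 6 values lay far from the other 4 of their group, where chance gives about 1 in 20 groups. In uc.48+, MT rat 2 was at 4.77 against 5.42 to 5.51 in the other MT rats, and NS rat 10 was at 3.47 against 4.49 to 4.75. MT rat 2 was also low in uc.156-, at 4.34 against 5.04 to 5.26, and in uc.77+, at 5.91 against 6.64 to 6.75. MT rat 2 is the MT rat of scan 2, and the part of the scan in these values was not tested. In uc.35+, NS rat 9 was at 5.62 against 3.44 to 4.05, and in uc.185+, MT rat 3 was at 3.57 against 2.96 to 3.11.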

How the results depend on the processing

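No paired analysis was possible because the groups share no replicate numbers. The count of members past the criteria (27 of 468) was 2 with normexp, 77 of 962 with no filter and 5 of 171 with detection required on all 10 arrays. It was 11 with the scan as a random block and 46 without scan 3. When the 8 other arrays were normalized and filtered again (chosen after seeing the data) it was 50 of 502. At a log2 difference above 1.5 it was 0. The fits within scan 2 and with the scan as a fixed block rest on 1 MT rat, so no count past the criteria is given for them. Leaving out 1 rat gave 20 (without NS rat 9) to 41 (without NS rat 10). The share of all RNAs past the criteria was not counted under these alternatives. The count past an adjusted p of 0.05 (0) was 3 in the deposited table (uc.352-, uc.370+ and uc.468+), 1 with normexp (uc.370+), 2 with detection on all 10 arrays (uc.370+ and uc.91+), and 0 to 3 when 1 rat was left out, with 3 without MT rat 2 (uc.245+, uc.462+ and uc.77+), 1 without NS rat 7 (uc.370+) and 1 without NS rat 10 (uc.91+). Both uc.352- and uc.468+ were at background in all NS rats and kept through MT alone, so their pass is not read. The median log2 difference (0.06) was 0.330 at the 75th percentile, -0.0880 without scan 3 and -0.0818 when renormalized, and 0.00495 to 0.0967 with 1 rat left out. The count without overlap (15) was 30 with no filter, 8 on all 10 arrays, 38 without scan 3, 41 renormalized, 195 within scan 2 and 16 to 44 with 1 rat left out. Fewer arrays overlap less often, and over all RNAs the share without overlap was 5.65% with all arrays, 12.4% without scan 3 and 48.6% within scan 2, against 3.21, 8.12 and 41.7% of members. With no filter the share without overlap was 5.09% of all RNAs and 3.12% of members. On all 10 arrays it was 6.67 and 4.68%, and renormalized 12.2 and 8.17%. With 1 rat left out it ran from 5.90 to 9.68% of all RNAs and from 3.42 to 9.40% of members. The members kept (468) were 171 with 10 of 10 arrays required and 440 to 468 with 1 rat left out. The pairs without overlap (6, those at the smallest exact p) were 3 with normexp, 12 of 481 with no filter, 2 of 29 on all 10 arrays, 16 without scan 3 and 6 to 16 with 1 rat left out (16 without MT rat 2). The smallest exact permutation p is 0.0179 without scan 3 against 0.00794 with all rats, so that count is at another threshold. Of the named members, uc.363+ (0.0791), uc.322+ (0.157), uc.325+ (0.218) and uc.63+ (0.191) changed direction within scan 2 and with scan as a fixed block. These settings give the same difference, as no other scan holds both groups, and both rest on MT rat 2 alone. In the other comparisons of named members with alternatives, 291 kept their direction and criteria, and 124 kept only their direction. Beyond the arrays each alternative leaves out and the RNAs it tests, the cause was not tested. The limits are 1 spot a member, 5 rats a group, and a scan 3 detection floor near 4.25.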

Other observations

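The largest log2 difference among the members kept was at uc.243+, named after its values were seen, which did not pass the criteria at 1.38 in the main fit. It passed with normexp, at 0.91, and with detection required on all 10 arrays, at 1.38. Its log2 intensity was 4.99 and 5.31 in NS rats 8 and 9, against 7.87 to 8.42 in the other 8 rats, and the difference was 0.24 without scan 3. In uc.91+, likewise named after its values were seen, the MT rats lay at 6.06 to 6.39 and the NS rats at 5.40 to 5.93, with a log2 difference of 0.58 (limma adjusted p = 0.0795), just under a fold of 1.5.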
